A study of Homo sapiens with 2 samples.

Results

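AP-1 is a family of transcription factors that bind DNA as pairs of basic leucine zipper (bZIP) proteins, and 9 of its subunits were examined here: FOS, FOSB, FOSL1, FOSL2, JUN, JUNB, JUND, ATF3 and BATF. Every probe set whose platform annotation gives 1 gene symbol, and that symbol among these 9, was taken. This gave 19 of 36289 probe sets, for 9 of 16716 genes, and each of the 9 subunits had at least 1 probe set. The probe sets were taken by gene name, and the 9 genes were chosen with earlier results of these data known. RNA came from 1 group of cells, a human lymphoblastoid line (B cells that Epstein-Barr virus, EBV, keeps dividing) for which the labels name no treatment. The group has 2 samples, replicates 1 and 2, each hybridised to 1 Affymetrix Human Genome U133 Plus 2.0 array. The sample titles give the line as GM06690 and the growth protocol as GM06990, in both samples alike. It is 1 line from 1 source. The labels do not state whether each replicate was grown apart, and the difference between the arrays may therefore be technical only.

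JUN proteins can pair with each other or with FOS proteins, whereas FOS proteins bind DNA only with a partner such as a JUN protein. The FOS and FOSB genes are immediate early genes: they are transcribed within minutes of a stimulus and their messenger RNAs are short-lived. BATF has a leucine zipper but no activation domain. It pairs with JUN proteins and, with IRF4 or IRF8, binds composite sites in lymphocytes. In B cells carrying EBV, the viral membrane protein LMP1 signals to the JNK kinases, which phosphorylate JUN, and the viral factor EBNA2 is known to raise BATF.

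AP-1 dimers bind the element TGACTCA and the longer cyclic AMP element TGACGTCA, and some AP-1 genes carry such elements in their own promoters. The promoters of 4 subunits are shown for that reason: JUN and JUND, and FOS and BATF, which lie next to the same gene on chromosome 14 and gave opposite calls below. Each runs from 250 bases before to 50 after the RefSeq start on the gene's own strand (GRCh38.p14, JUN at chr1:58783998-58784297 minus strand, JUND at chr19:18281573-18281872 minus strand, FOS at chr14:75278578-75278877 plus strand, BATF at chr14:75522219-75522518 plus strand). Capitals mark TGACTCA, TGACGTCA, its core TGACGT and the JUN-type element TGACATCA on either strand, and TATAAA on the gene's strand.
JUN: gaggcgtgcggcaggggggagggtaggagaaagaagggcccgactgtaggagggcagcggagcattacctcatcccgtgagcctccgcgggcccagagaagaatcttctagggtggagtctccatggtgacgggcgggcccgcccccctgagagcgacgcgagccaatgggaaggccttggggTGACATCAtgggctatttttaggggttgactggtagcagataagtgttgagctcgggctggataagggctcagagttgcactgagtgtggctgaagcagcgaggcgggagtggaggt
JUND: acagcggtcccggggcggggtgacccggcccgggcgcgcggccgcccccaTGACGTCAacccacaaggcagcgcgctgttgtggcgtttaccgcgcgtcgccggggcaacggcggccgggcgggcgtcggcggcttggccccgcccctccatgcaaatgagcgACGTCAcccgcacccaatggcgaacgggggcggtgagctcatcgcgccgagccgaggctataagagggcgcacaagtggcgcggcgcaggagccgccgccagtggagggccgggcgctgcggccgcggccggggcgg
FOS: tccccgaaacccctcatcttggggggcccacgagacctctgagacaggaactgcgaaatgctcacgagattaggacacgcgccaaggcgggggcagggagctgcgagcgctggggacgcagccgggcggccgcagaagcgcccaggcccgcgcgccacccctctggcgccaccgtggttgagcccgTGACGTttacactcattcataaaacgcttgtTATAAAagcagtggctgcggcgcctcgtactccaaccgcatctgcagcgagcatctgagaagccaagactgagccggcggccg
BATF: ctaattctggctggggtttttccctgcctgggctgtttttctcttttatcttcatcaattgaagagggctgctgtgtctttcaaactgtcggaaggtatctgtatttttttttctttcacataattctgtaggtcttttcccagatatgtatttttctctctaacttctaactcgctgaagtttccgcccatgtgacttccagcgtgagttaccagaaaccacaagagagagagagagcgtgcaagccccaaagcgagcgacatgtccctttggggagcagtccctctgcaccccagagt

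The JUN window held TGACATCA, which begins 67 bases before the start, and so did 1 of 2 ATF3 windows. That element was in 2.61% of 35116 RefSeq promoter windows. The JUND window held TGACGTCA (1.85% of windows) and the FOSL2 window TGACTCA (4.95%). The core TGACGT, which TGACGTCA contains and which was added to the search after the sequences were seen, was in the FOS, FOSB, FOSL2 and JUND windows, against 7.98% of windows. TATAAA was found for FOS, FOSB, JUNB and 1 of 2 ATF3 windows (7.33% of windows). The BATF window held none of these motifs. Windows of 8 subunits were searched, and FOSL1 was not among them. A match describes letters and not binding, and a window without a match says nothing of the factor.

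A probe set is called above background here if its signal was higher, on both arrays, than the 95th percentile of 79 measured genes that are typical of other organs (liver, pancreas, brain, retina, muscle, kidney and others). That level was 5.16 on the log2 scale in replicate 1 and 5.19 in replicate 2. The line's B-cell markers lay above it in 7 of 7 measured cases, including MS4A1 (13.19 ± 0.10), against 0 of 8 T-cell, 0 of 6 NK-cell, 1 of 7 myeloid and 1 of 8 fibroblast and epithelial markers. The exceptions were S100A9 (5.78 ± 0.17) and KRT8 (5.19 on both arrays). KRT8 was barely above the level in replicate 2, at 5.1929 against 5.1909. CD28 exceeded the level in replicate 1 alone. Signals are log2 RMA signals, and ± gives the SD of both arrays (n = 2).

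By its brightest probe set, a subunit was above background in 6 of 9 cases: all 3 JUN genes, ATF3, BATF and FOSL1. The FOS family had 1 of 4 genes above, FOSL1, and FOS, FOSB and FOSL2 were below the level on both arrays. Over all genes 56.3% were above background, so 6 of 9 (66.7%) is near that share, and the split by family is a description of 9 genes. Of 14545 measured protein-coding genes with a position 62.5% were above. Of the 19 AP-1 probe sets 12 were above background, against 47.6% of all probe sets, with or without a gene symbol. None of the 19 was above on 1 array only, against 804 of all 36289 probe sets. The median signal of the 9 subunits was 8.19, against 6.10 over all genes. Probe sets differ in affinity, so signals of different genes are not an order of transcript abundance.

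**Figure D1:**
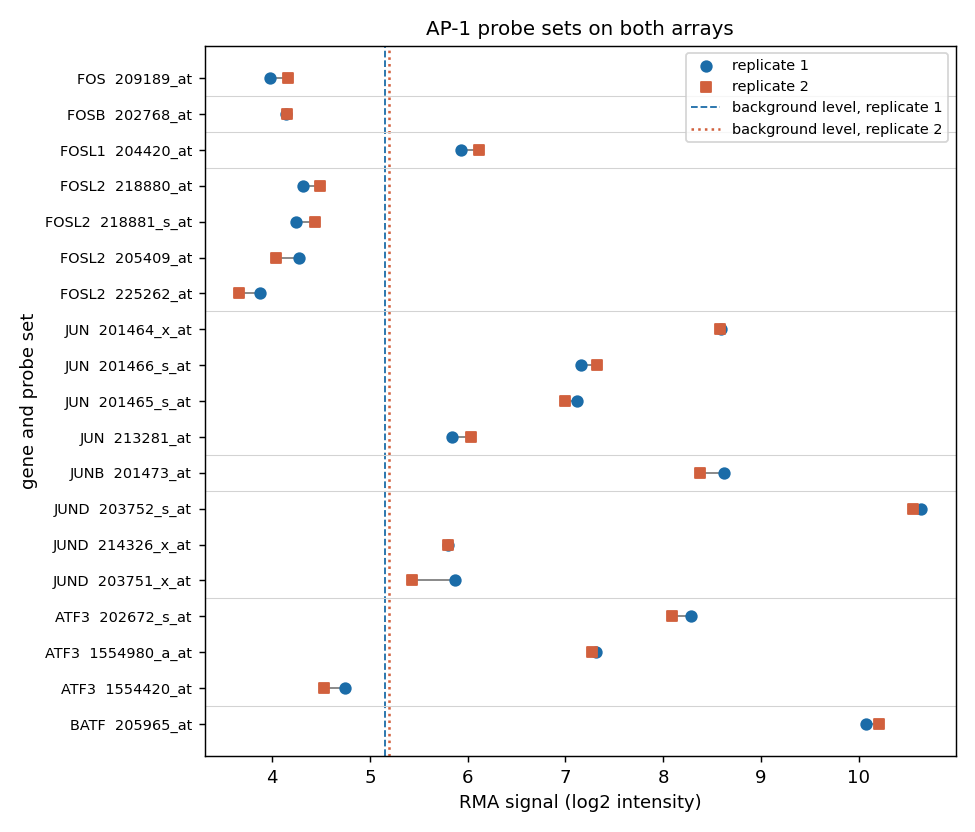
RMA signal (log2 intensity, x axis) of each AP-1 probe set (y axis, gene and probe set identifier) in replicate 1 (circles) and replicate 2 (squares), with each array's background level as a vertical line. All 8 JUN, JUNB and JUND probe sets lie right of the lines, and of the 7 FOS family probe sets only that of FOSL1 does.

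The JUN family supplies the partners that FOS proteins and BATF need. JUN, a target of the JNK kinases, had 4 probe sets. The brightest, 201464_x_at, read 8.59 in replicate 1 and 8.58 in replicate 2, which are intensities of 385 and 383. The next brightest, 201466_s_at, read 7.16 and 7.32 in replicates 1 and 2, and 201465_s_at read 7.12 and 6.99. The fourth, 213281_at, read 5.84 and 6.04, so every JUN probe set was above background on both arrays although they spanned 2.65 log2 units. A probe set ending in _x_at may bind unrelated transcripts and one in _s_at may bind several related ones, and the JUN probe set with neither ending was the dimmest.

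JUNB, a subunit that in some settings opposes JUN, was read by 1 probe set, at 8.62 in replicate 1 and 8.37 in replicate 2. JUND, the JUN gene that is usually transcribed without a stimulus, had 3 probe sets. Its brightest, 203752_s_at, read 10.64 and 10.56 in replicates 1 and 2, intensities of 1594 and 1505. The other JUND probe sets were nearer the level, 214326_x_at at 5.80 on both arrays and 203751_x_at at 5.87 and 5.43. The JUND probe sets thus spanned 4.95 log2 units, the widest span among the 4 subunits with several probe sets, and the call of JUND as far above background rests on 203752_s_at.

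BATF was read by 1 probe set, 205965_at, at 10.07 in replicate 1 and 10.21 in replicate 2, intensities of 1075 and 1182. Both arrays were far above the background level, by 4.91 and 5.02 log2 units. ATF3, a repressor or activator induced by many stresses, had 3 probe sets. The probe set 202672_s_at read 8.28 and 8.09 in replicates 1 and 2, and 1554980_a_at read 7.31 and 7.28. The third, 1554420_at, read 4.75 and 4.53 and was below the level on both arrays, so ATF3 was above background by 2 of 3 probe sets.

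FOS, the founding member of its family, was read by 1 probe set at 3.98 in replicate 1 and 4.16 in replicate 2. These are intensities of 15.8 and 17.9, against background levels of 35.7 and 36.5. FOSB read 4.15 on both arrays. FOS and FOSB therefore stood about 1 log2 unit or more below the level on each array, at -1.17 and -1.03 relative to it for FOS and at -1.01 and -1.04 for FOSB in replicates 1 and 2.

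FOSL2, which encodes FRA2, had 4 probe sets, and all 4 were below the level on both arrays. Its brightest, 218880_at, read 4.32 and 4.49 in replicates 1 and 2, and its dimmest, 225262_at, read 3.88 and 3.66. The absence of a signal above background was thus seen by every FOSL2 probe set used. FOSL1, which encodes FRA1, was read by 1 probe set at 5.93 and 6.11 in replicates 1 and 2, above the level by 0.77 and 0.92. FOSL1 was the subunit nearest to the level among those above it. With the 99th percentile of the organ-typical genes as the level, its mean lay at -0.69 relative to that level. At that level 5 of 9 subunits were above, against 45.6% of all genes. The 99th percentile depended on 1 organ-typical gene, MBP, which was itself bright in this line (10.33 ± 0.04). A gene not above background may still be transcribed.

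None of the 19 AP-1 probe sets had a log2 difference over 0.58 between the arrays. Over all probe sets 1.37% did, so a count of 0 among 19 is near the background. The median absolute difference of the 19 was 0.18, against 0.11 over all probe sets. The 95th percentile of the absolute difference went the other way, at 0.27 for the 19 against 0.42 over all probe sets. The largest difference was that of the JUND probe set 203751_x_at, -0.44 (replicate 2 minus replicate 1), and JUNB followed with -0.25. Among the AP-1 probe sets above background the median absolute difference was 0.15 (n = 12), against 0.08 over all 17268 probe sets above background. Among those not above it was 0.20 (n = 7), against 0.14 over all 19021 probe sets not above. The 95th percentiles were 0.34 for AP-1 and 0.34 for all probe sets above, and 0.23 and 0.46 for those not above. The direction was mixed, with 8 AP-1 probe sets higher in replicate 2 and 11 higher in replicate 1. Among the 4 subunits with several probe sets, JUN and FOSL2 each had 2 higher in replicate 2 and 2 higher in replicate 1, whereas all 3 of JUND and all 3 of ATF3 were higher in replicate 1. The differences were -0.08, -0.44 and under 0.01 in size for JUND, and -0.19, -0.03 and -0.21 for ATF3. These values rest on 1 pair of arrays.

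**Figure D2:**
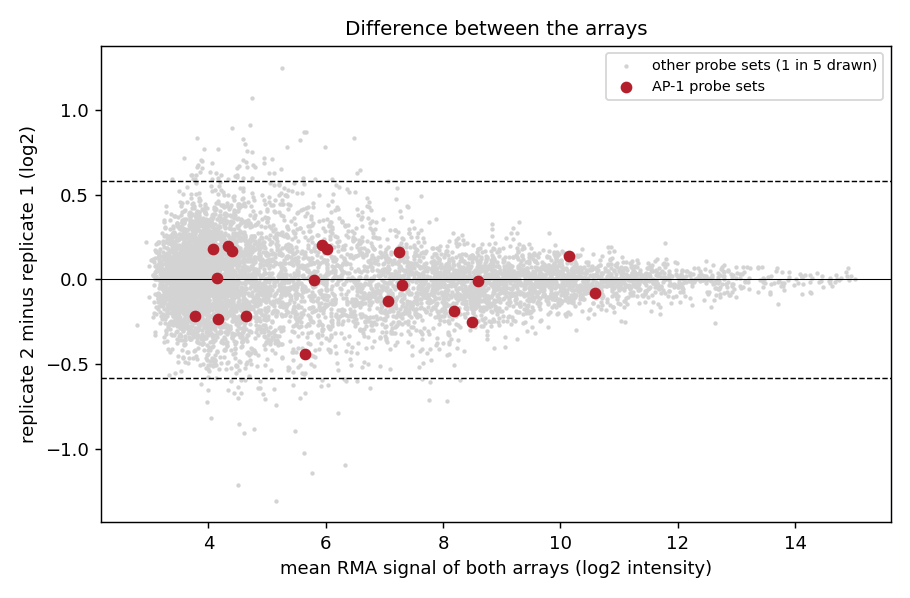
Difference between the arrays (replicate 2 minus replicate 1, log2, y axis) against the mean signal of both arrays (log2 intensity, x axis), with AP-1 probe sets in red and 1 in 5 of the other probe sets in grey. Dashed lines mark a difference of 0.58, and all 19 AP-1 probe sets lie between them, the lowest at -0.44.

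Other bZIP genes can pair with AP-1 subunits or share their sites. Together with the 9 subunits, 28 of 41 measured bZIP genes (68.3%) were above background, against 56.3% of all genes. Of protein-coding genes with a position 62.5% were. Among the close partners 3 of 5 were: JDP2, a repressor that pairs with JUN (7.02 ± 0.07), BATF3, a close relative of BATF (9.87 ± 0.05), and ATF2, which pairs with JUN (9.44 ± 0.01). ATF7 was not (4.07 ± 0.03), and CREB5 exceeded the level in replicate 2 alone (5.14 and 5.60 in replicates 1 and 2). All 8 measured CREB and ATF genes were above background, among them CREB1 (10.18 ± 0.10) and CREM (9.38 ± 0.01).

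Of the MAF, BACH and CNC genes 5 of 9 were above background (55.6%), near the 56.3% of all genes. The small MAF gene MAFG was (7.53 ± 0.08), whereas MAFF (5.09 ± 0.03), MAF (3.72 ± 0.04), the B-cell repressor BACH2 (4.30 ± 0.23) and NFE2 (3.59 ± 0.16) were below the level. None of the 5 MAF probe sets was above it on both arrays. In the C/EBP and PAR list 6 of 10 (60%) were above, also near that share, including CEBPB (8.55 ± 0.05) and CEBPG (9.11 ± 0.07). CEBPA (4.44 ± 0.21), CEBPE (4.01 ± 0.19), NFIL3 (4.85 ± 0.23) and HLF (3.94 ± 0.06) were not. With the 99th percentile as the level, 4 of 10 genes of that list were above, against 45.6% of all genes.

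Both interferon regulatory factors with which BATF binds composite sites were above background, IRF4 at 11.63 and 11.42 and IRF8 at 10.55 and 10.60 in replicates 1 and 2. IRF4 was above by 2 of 3 probe sets. The line therefore had signals above background for BATF, for all 3 JUN genes and for both IRF partners, on both arrays.

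The kinases upstream of AP-1 were nearly all above background, against 56.3% of all genes. The ERK list had 5 of 5 measured genes above, such as HRAS (8.38 ± 0.02) and ARAF (8.44 ± 0.08), and the p38 list 5 of 5, such as MAP2K6 (8.60 ± 0.02) and MAPK11 (6.39 ± 0.03). In the JNK list 7 of 8 were above, with the kinase kinase kinases MAP3K1 (8.29 ± 0.05) and MAP3K5 (10.91 ± 0.05). MAPK10, the JNK gene known mainly from neurons, exceeded the level in replicate 2 alone (5.12 and 5.29 in replicates 1 and 2). The ERK list had 10 genes and the p38 list 7, and 5 of each were measured by the probe sets used. With the 99th percentile of the organ-typical genes as the level, 4 of 5 p38 genes were above, against 45.6% of all genes.

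The factors that act on the FOS and JUN promoters were above background in 9 of 9 cases, against 56.3% of all genes. Of their probe sets 18 of 31 were above, against 47.6% of all probe sets. With the 99th percentile as the level 7 of 9 genes were, against 45.6% of all genes. With the mean of all probe sets of a gene 8 of 9 were, against 55.2% of all genes. SRF, which binds the serum response element of FOS, read 9.67 and 9.77 in replicates 1 and 2, and its ETS partner ELK1 read 7.81 and 7.77. SRF was above by 1 of 2 probe sets and ELK1 by 2 of 3. FOS itself was not above background beside them. Messenger RNA of kinases and of SRF says nothing of their activity, which was not measured.

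MAP kinase phosphatases switch off ERK, JNK and p38, and several are themselves early response genes. Of 10 measured, 7 were above background, against 56.3% of all genes and 62.5% of protein-coding genes with a position. These included DUSP1 (7.32 ± 0.09, by 1 of 3 probe sets) and DUSP2 (10.02 ± 0.17). DUSP6 (4.38 ± 0.05), DUSP8 (4.16 ± 0.03) and DUSP9 (3.92 ± 0.09) were not. Regulators of the AP-1 proteins were above in 8 of 8 cases, such as the JUN coactivator COPS5 (11.07 ± 0.04) and the ubiquitin ligase COP1 (9.01 in replicate 2, and within 0.01 of that in replicate 1).

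**Figure D3:**
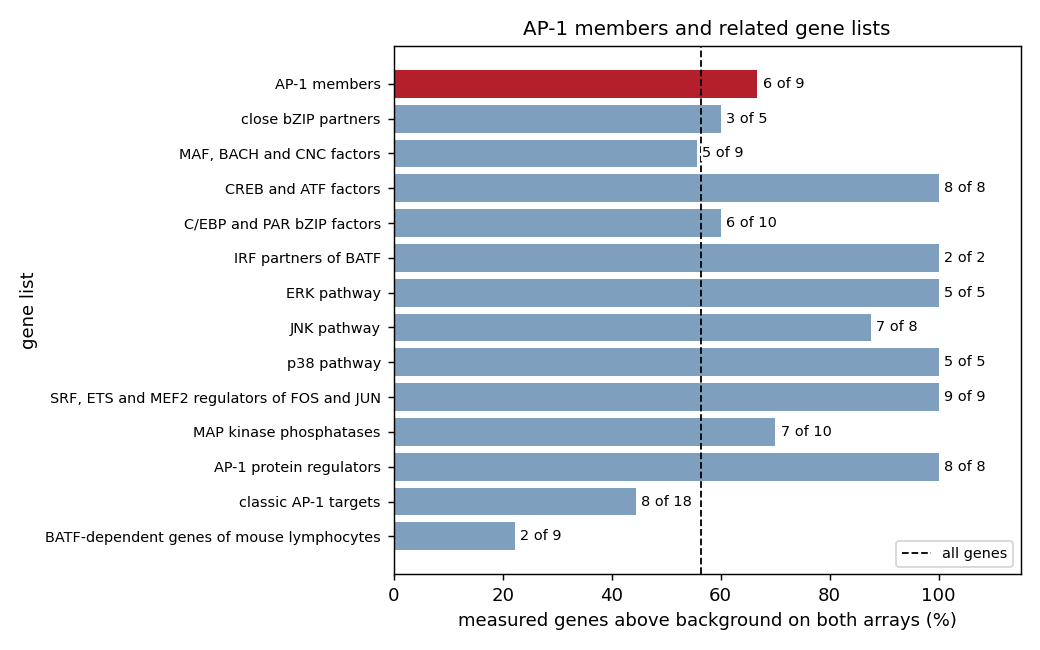
Share of measured genes above background on both arrays (%, x axis) for the AP-1 members (red) and 13 related lists (blue), with the count beside each bar and the share of all genes (56.3%) as a dashed line. The list of classic AP-1 targets (8 of 18), that of BATF-dependent genes (2 of 9) and that of MAF, BACH and CNC factors (5 of 9) end left of the line.

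Genes known as AP-1 targets in other cells were above background in 8 of 18 cases (44.4%), against 56.3% of all genes. Without _x_at and _s_at probe sets the count was 4 of 11, against 49.6% of all genes then measured. The matrix metalloprotease genes MMP1 (3.58 ± 0.20) and MMP3 (3.70 ± 0.34) were below the level. The 8 above were PLAUR, CD44, VIM, EZR, TIMP1, TNF, HMOX1 and MT2A. Of these PLAUR, the urokinase receptor gene (5.39 ± 0.06), was near the level and above by 1 of 3 probe sets, whereas the adhesion receptor gene CD44 (12.27 ± 0.01) was above by 8 of 10.

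Of 9 measured genes that depend on BATF in mouse T or B cells, 2 were above background (22.2%), against 56.3% of all genes. These were PRDM1, a plasma cell factor (8.46 ± 0.23), and the cytokine gene IL10 (6.25, SD under 0.01). At the 99th percentile level IL10 was no longer above, which left 1 of 9, against 45.6% of all genes. When probe sets ending in _x_at or _s_at were dropped, PRDM1 could not be measured, and 1 of 7 genes was above, against 49.6% of all genes. BCL6 (4.19 ± 0.20), MAF, IL17A (3.69 ± 0.20), IL21 (4.01 ± 0.18) and IL23R (4.29 ± 0.13) were among the 7 below the level. Most of this list comes from mouse helper T cells, and the defining T-cell genes CD3D, CD3E and CD3G were below background here. Whether the cell type bears on the count was not tested. Over all 13 related lists 75 of 105 distinct measured genes were above background (71.4%, median signal 8.10), against 56.3% of all genes. The share among protein-coding genes with a position was 62.5%.

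The series title places these arrays beside Hi-C maps of chromosome contacts, so the genes next to each subunit were described. FOS, JDP2 and BATF follow each other on chromosome 14, with JDP2 the only protein-coding gene between FOS and BATF in the GRCh38.p14 gene table. FOS read 3.98 and 4.16, JDP2 7.07 and 6.97, and BATF 10.07 and 10.21 in replicates 1 and 2. A subunit below background and one above it therefore lay a single gene apart. The gene before FOS, TMED10, was above background (11.85 ± 0.02), and the gene after BATF, FLVCR2, was not above on both arrays (5.18 and 5.04 in replicates 1 and 2).

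**Figure D4:**
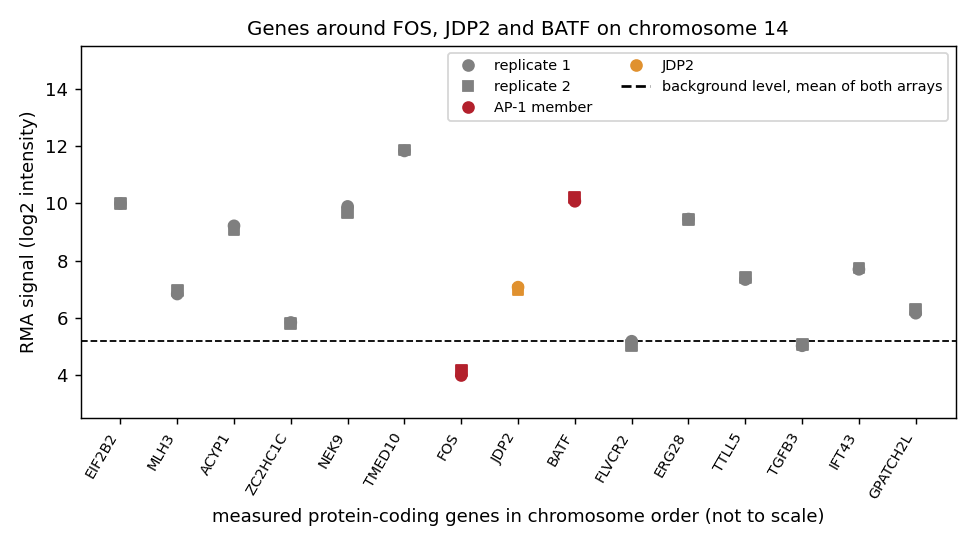
RMA signal (log2 intensity, y axis) of the measured protein-coding genes around FOS, JDP2 and BATF in their order on chromosome 14 (x axis, not to scale), in replicate 1 (circles) and replicate 2 (squares). The dashed line is the mean background level of both arrays, and FOS lies below it between TMED10 (11.85) and JDP2 (7.02), with BATF at 10.14.

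On chromosome 1, BATF3 is the second measured protein-coding gene after ATF3, and both were above background, as were all 6 measured neighbours counted for ATF3. Over the nearest 3 measured protein-coding genes on either side of each subunit, 37 of 49 distinct neighbours that were not subunits themselves were above background (75.5%), against 62.5% of 14545 measured protein-coding genes with a position. FOS, FOSB and FOSL2, below background, each had 5 of 6 neighbours above, with BATF counted among those of FOS. Of the other subunits, all above background, FOSL1, JUN, JUNB and BATF each had 4 of 6 and JUND 3 of 6. For every subunit but JUND, most of the 6 neighbours were thus above background, as were 62.5% of protein-coding genes with a position. Contacts were not measured here.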

How the data were processed

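The values deposited by the authors are 1 intensity per probe set and array on a linear scale, made with RMA per the submitters' processing notes. RMA includes quantile normalization, so a change in total messenger RNA cannot be seen. The version and genome build are not given in the sources used here. Log2 was taken. Of the probe sets 29493 had 1 gene symbol in the platform annotation, 1407 several and 5389 none, and 29461 of the first were matched by Entrez ID to RefSeq symbols (GRCh38.p14). Other probe sets of this array were not used here. A gene was represented by its brightest probe set. The list of organ-typical genes for the background level held 95 genes, 79 measured.

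With 1 group of 2 arrays there was no contrast, so no test was run and no p-value is given. The number of arrays limits the precision. Named were all subunits, the first 2 measured genes of each related list, up to 5 with the less frequent call, and bZIP neighbours. ATF2, TNF, HMOX1, MT2A, the BATF-dependent genes below background, TMED10, FLVCR2 and the cell type markers were named after their values were seen. Members and lists were chosen with earlier results of these data known. The code for the calls was run on data simulated from the observed means, with the truth set by the same rule. Only genes away from the level were scored, so that run says nothing of calls near the level. Promoters came from RefSeq. Python 3.11.15, pandas 2.3.3, numpy 2.4.6 and statsmodels 0.14.6 were used. Alternatives covered the level, the summary over probe sets, _x_at and _s_at probe sets, each array alone and normalization.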

Additional observations from a re-analysis of the deposited data

How the results depend on the processing

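The count of AP-1 subunits above background was 6 of 9 when the 75th percentile of the organ-typical genes set the level, with the mean of all probe sets of a gene, after a second quantile normalization, and in each array alone (6 to 6). FOSL1 was the subunit whose call turned: at the 99th percentile its signal lay at -0.69 relative to the level. There 5 of 9 subunits were above, against 45.6% of all genes. That level depended on the brightest of the organ-typical genes, MBP (10.33, with 4 of 7 probe sets above background). The next brightest was PRL (5.69). Without _x_at and _s_at probe sets JUND could not be measured, and 5 of 8 subunits were above, against 49.6% of all genes then measured. The count of related genes above background ranged from 66 to 82 of 105 over the levels tried, beside 45.6% to 64.8% of all genes, was 76 to 77 with an array left out, and was 56 of 78 without _x_at and _s_at probe sets. Leaving those probe sets out also moved the counts of MAF, BACH and CNC genes to 3 of 4 and of CREB and ATF genes to 5 of 5, as fewer genes could be measured. The neighbour count ranged from 30 to 42 of 49 over the levels, and was 37 to 39 with an array left out; its alternatives were chosen after seeing the data. When differences over 0.3 rather than 0.58 were counted, the number of AP-1 probe sets differing between the arrays was 1 in place of 0, the JUND probe set 203751_x_at, against 12.5% of all probe sets. Counted at 0.58, it was 0 after a second quantile normalization and with a loess curve removed, and neither was combined with 0.3. No paired analysis was possible because the labels give 1 group. Single probe sets read FOS, FOSB, FOSL1, JUNB and BATF, so their calls have no second probe set.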
